A study of Sus scrofa with 23 samples.

Results

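The genes described here are 10 genes of lactate transport, lactate dehydrogenase and the glycerol phosphate shuttle: SLC16A1, SLC16A3, SLC16A7, SLC5A8, SLC5A12, BSG, LDHA, LDHB, GPD1 and GPD2. They are 10 of 26675 genes in the transcript table and were chosen by their symbols, with earlier results of these data known. The reason for the choice was that RNA of GPD2 and SLC16A7 differed between CF and non-CF pigs in one direction among the pigs with earlier numbers and in the other direction among those with later numbers. Differences between CF and non-CF in these genes are therefore given as descriptions, and nothing is read from tests of them. The comparison of HET with WT, which the choice did not use, was tested. All 10 genes were among the 20912 that passed the expression filter.

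The data are RNA-Seq libraries of newborn pig kidney cortex, 1 from each of 23 pigs, made from total RNA without its ribosomal part. The labels give the genotype CFTR-/- for 11 pigs (CF), CFTR+/- for 6 (HET) and CFTR+/+ for 6 (WT), and WT and HET together form the non-CF group of 12. CF piglets came from matings of CFTR+/- pigs and were newborn, and the labels name no treatment, litter or sex. The numbers in the sample titles form an earlier set (pigs 1 to 6 and 12 to 18, with 6 CF, 3 HET and 4 WT) and a later set (pigs 7 to 11 and 19 to 23, with 5 CF, 3 HET and 2 WT), and what the numbers stand for is not given in the sources used here. Each library held between 32901281 and 52952273 estimated counts. CFTR RNA was 1.27 to 3.67 CPM (counts relative to the library's total) in WT, 9.41 to 17.5 in HET and 12.5 to 23.5 in CF libraries. It thus did not fall with the disrupted alleles, and every HET and CF library lay above every WT library. The reason was not tested, and pigs are named by their labels throughout. Proximal tubule markers, 11 genes that the cortex should hold, summed to between 7558 and 14969 CPM in every library. Since the tissue was measured in bulk, fewer cells of a type and less RNA per cell cannot be told apart.

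Lactate and pyruvate cross cell membranes through monocarboxylate transporters of the SLC16 family, which move them together with a proton and need a partner glycoprotein, mostly basigin (BSG), to reach the surface. In the proximal tubule the sodium-coupled carriers SLC5A8 and SLC5A12 take filtered lactate back from the urine, and lactate dehydrogenase, a tetramer of A and B subunits, converts it to pyruvate, a substrate of renal gluconeogenesis. The glycerol phosphate shuttle passes electrons of cytosolic NADH to the respiratory chain: GPD1 reduces dihydroxyacetone phosphate to glycerol 3-phosphate in the cytosol, and GPD2 oxidizes it again at the outer face of the inner mitochondrial membrane.

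The symbol LDHB needs a remark on its sequence, because it decides what the LDHB value measures. The authors' transcript table gives the symbol LDHB to gene 100621540, a single-exon entry of 1280 bases on chromosome 2 (12988754 to 12990033, minus strand, Sscrofa11.1). The 8-exon LDHB gene on chromosome 5 (51810932 to 51831218, plus strand, gene 102161427) is listed there as LDHB_1. In genome sequence, the single-exon entry aligned to the spliced transcript of LDHB_1 with 11 mismatches and 0 gaps (99.1% identity). Of its 1250 subsequences of 31 bases, 958 (76.6%) were also in LDHB_1, so reads could be divided between both. The annotation gives 13 substitutions between the RefSeq transcript of the single-exon entry and the genome. These values, and the stretch below, may therefore differ for the transcript sequence itself. A stretch of 60 bases, shown because it holds 2 of the 11 mismatches (in capitals), reads as follows at chr5:51828963-51829022 (plus strand) and chr2:12989181-12989240 (minus strand).
LDHB_1: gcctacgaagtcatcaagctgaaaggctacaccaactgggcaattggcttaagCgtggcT
LDHB: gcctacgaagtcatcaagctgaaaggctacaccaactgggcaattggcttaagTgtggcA
LDHB received 16 to 128 counts per library and LDHB_1 20798 to 41346. Both are given below, LDHB_1 as a gene added after the annotation had been read.

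Promoter sequence is shown for GPD2 and SLC16A7, the genes whose difference between CF and non-CF changed direction between the number sets. Each run is the 250 bases before the start of the main transcript or of a transcript that starts just before it, read from the RefSeq annotation of Sscrofa11.1, 5′ to 3′ on the plus strand. Capitals mark matches, on either strand, to 5 short motifs: the hypoxia core letters ACGTG and GCGTG, the nuclear receptor half-site AGGTCA, the GC box GGGCGG and the CCAAT box. The GPD2 window is chr15:63593241-63593490 and that of SLC16A7 is chr5:24712759-24713008. The annotated GPD2 gene starts at 63592723, so its window lies inside the gene, after the gene's first start. SLC16A7 starts at 24713009, directly after its window.
GPD2: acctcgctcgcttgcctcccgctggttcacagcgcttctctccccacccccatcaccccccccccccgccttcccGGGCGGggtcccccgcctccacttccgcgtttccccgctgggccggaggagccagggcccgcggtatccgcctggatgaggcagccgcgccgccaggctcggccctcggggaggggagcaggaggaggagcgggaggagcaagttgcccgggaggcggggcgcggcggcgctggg
SLC16A7: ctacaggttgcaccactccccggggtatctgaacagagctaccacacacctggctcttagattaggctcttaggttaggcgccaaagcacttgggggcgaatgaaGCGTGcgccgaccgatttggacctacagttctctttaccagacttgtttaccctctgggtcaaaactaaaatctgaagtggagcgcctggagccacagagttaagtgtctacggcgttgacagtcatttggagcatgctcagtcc
GPD2 had 1 GC box and none of the other motifs, in a window of 76.8% G and C against a median of 58.4% over 20900 promoters of the same length. SLC16A7 had 1 GCGTG and 52.4% G and C. A GC box occurs in 46.4% of those promoters, GCGTG in 32.2%, CCAAT in 31.3%, ACGTG in 19% and AGGTCA in 12.9%, so neither match is rare. LDHA, a known hypoxia target, had 3 ACGTG and 2 GCGTG in its window.

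Levels can be compared between genes only per transcript length, on the TPM scale. LDHB_1 had the highest median over the 23 libraries, 567 TPM (range 455 to 743), followed by BSG with 311 (256 to 392), and these ranges did not overlap with each other or with the next gene. The sodium-coupled carrier SLC5A12 had 56.4 TPM (24.1 to 97.5), GPD1 47.5 (19.5 to 74.8), LDHA 41.8 (24.3 to 76.7) and SLC16A1 31.3 (18.9 to 70.8). These 4 neighbours overlapped, and SLC5A12 lay above GPD1 in 17 of 23 libraries and GPD1 above LDHA in 13. SLC16A7, at 15.6 TPM (9.95 to 23.8), lay under SLC16A1 in all 23 libraries, although the ranges overlap. SLC16A3, the carrier typical of lactate-releasing cells, had 6.45 TPM (2.52 to 11.2), GPD2 5.53 (3.49 to 8.93) and SLC5A8 4.08 (2.59 to 6.40). These 3 overlapped as well. The single-exon LDHB entry was lowest at 1.08 TPM (0.376 to 2.26). With LDHB_1 counted as the B subunit, LDHA made up 6.88% ± 2.43 (SD, n = 23) of the sum of both subunits.

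**Figure D1:**
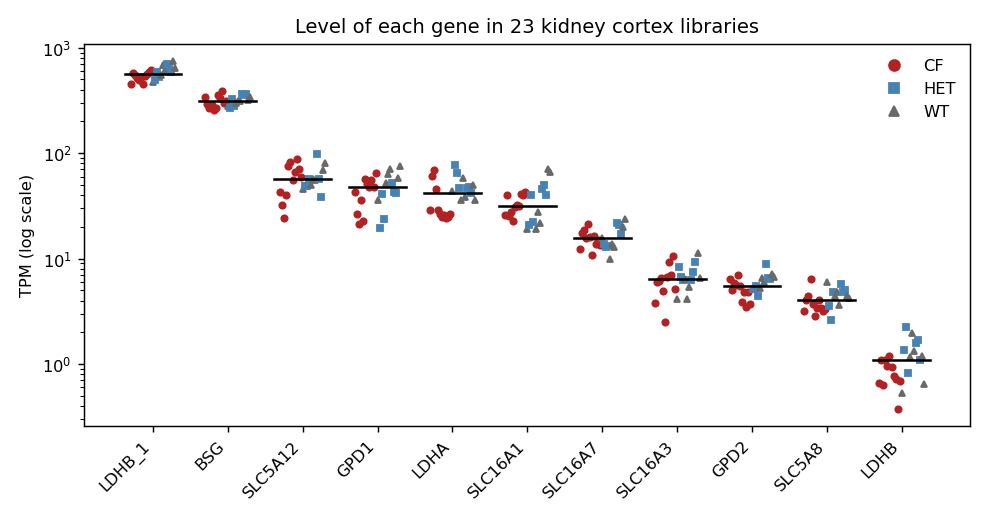
TPM (log axis) of each gene in 23 libraries, 1 point per library, coloured by label, with a bar at the median. LDHB_1 (455 to 743) and BSG (256 to 392) lie above all others, and the single-exon LDHB entry (0.376 to 2.26) lies below them.

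GPD2, the mitochondrial enzyme of the shuttle (gene 397348, chromosome 15 from 63592723 to 63728636, 6 transcripts), had the widest gap between the number sets among the 10 genes. Among later-numbered pigs the 5 CF libraries had 21.6, 20.1, 19, 21.1 and 16.3 CPM after TMM scaling (a scaling by trimmed means between libraries). The non-CF libraries of that set had 39.3, 32.8 and 35.5 CPM in HET and 30.7 and 29.9 in WT pigs, so that each CF library lay below each non-CF library. The fitted log2 fold change, CF over non-CF, was -0.78 (SE 0.112). Among earlier-numbered pigs, the 6 CF libraries ranged from 23.3 to 35.6 CPM with a median of 29.4, and the 7 non-CF libraries from 23.2 to 29.0 with a median of 24.8. There the groups overlapped, 5 of 6 CF libraries lay above the non-CF median and 3 above every non-CF library, and the log2 fold change was 0.24 (SE 0.0979). The difference between both effects, later minus earlier, was -1.02 (SE 0.149). Between the sets, later minus earlier, the log2 difference was 0.41 (SE 0.102) in non-CF and -0.61 (SE 0.108) in CF libraries. Over all libraries at once the log2 fold change was -0.20 (SE 0.125).

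SLC16A7, the high-affinity monocarboxylate transporter MCT2 (gene 100158241, chromosome 5 from 24713009 to 24871891, 8 transcripts), had the same pattern. In the later set, CF libraries had 73.3, 86.1, 92.9, 83.7 and 74.2 CPM. Non-CF libraries of that set had 119, 129 and 112 CPM in HET and 111 and 131 in WT pigs. The groups did not overlap, and the log2 fold change was -0.55 (SE 0.114). In the earlier set, CF libraries ranged from 85.9 to 130 CPM (median 108) and non-CF libraries from 63.5 to 95 (median 81.3), with 4 of 6 CF libraries above every non-CF library. The log2 fold change there was 0.41 (SE 0.0997), and the difference between the sets was -0.97 (SE 0.151). Over all libraries the log2 fold change was -0.01 (SE 0.122).

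SLC16A1, the widely expressed carrier MCT1 (gene 100127159, chromosome 4 from 107510920 to 107547609), had a like but wider-spread pattern. Later CF libraries had 80.7, 66.3, 98.3, 77.7 and 83.1 CPM, against 94.8, 111 and 93.8 in HET and 143 and 133 in WT pigs. Of the 5 CF libraries 4 lay below every non-CF library, and 1 overlapped. The log2 fold change was -0.50 (SE 0.170) in the later set and 0.28 (SE 0.150) in the earlier set, where CF libraries had 57.4 to 96.1 CPM (median 67.8) and non-CF 45.9 to 90.3 (median 53.6). The difference between the sets was -0.78 (SE 0.227) with all non-CF libraries as the control, -1.15 with WT alone and -0.42 with HET alone. In non-CF libraries SLC16A1 was 1.97 times higher in the later than in the earlier set, and in CF libraries 1.15 times.

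**Figure D2:**
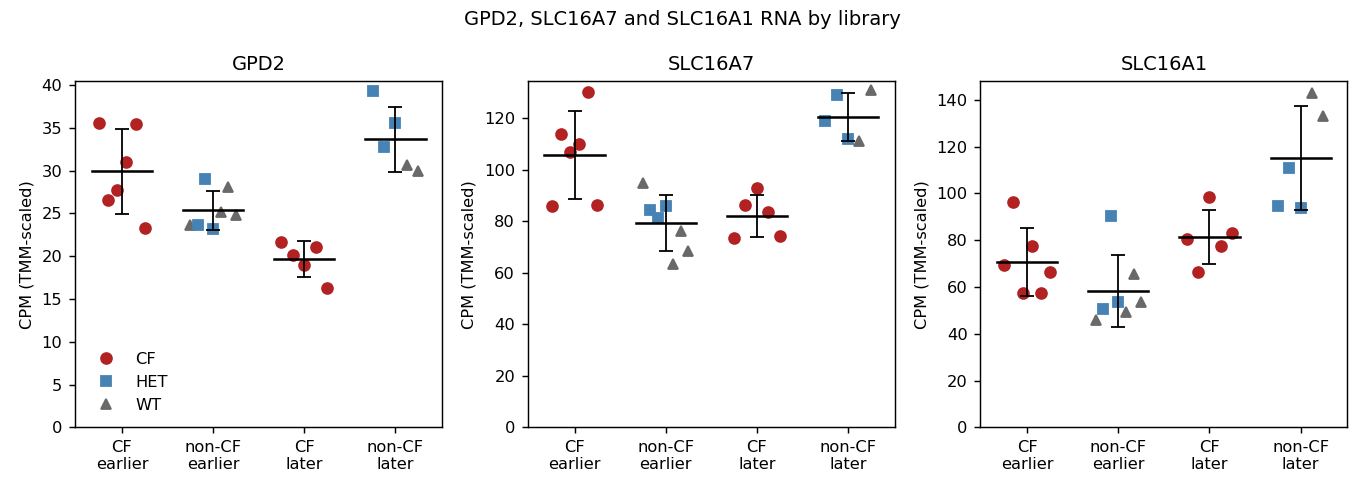
CPM after TMM scaling of GPD2, SLC16A7 and SLC16A1 in each library, by CF or non-CF and by earlier or later pig number, with colours for the labels and bars for the mean ± SD. For GPD2 and SLC16A7 the 5 later CF points lie under all later non-CF points (16.3 to 21.6 against 29.9 to 39.3 CPM for GPD2), while the earlier groups overlap.

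Of the 10 genes, GPD2 and SLC16A7 had an adjusted p under 0.05 in edgeR's test of the difference between the sets, where 4 of 20912 genes did (0.0191%, the others being MMP11 and NUDT4). The same 2 had one in the later set (1.07% of all genes) and 0 of the 10 in the earlier set (0.340%) or over all libraries (0.708%). Since these contrasts chose the genes, nothing is read from these counts. In the later set 3 genes, GPD2, SLC16A7 and LDHA, had CF and non-CF ranges that did not overlap, as had 4.64% of all tested genes, and in the earlier set 0 did, against 0.631%. The median log2 fold change of the 10 genes was -0.33 in the later and -0.01 in the earlier set, beside medians of 0.01 and -0.00 over all genes. The comparisons of the later and the earlier set use different pigs.

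The other carriers and BSG had log2 fold changes nearer to 0 than SLC16A1 and SLC16A7. SLC16A3 (MCT4) had a log2 fold change of -0.18 (SE 0.229) in the earlier and -0.06 (SE 0.258) in the later set, with 5.30 to 23.2 CPM over all 4 groups. SLC5A8, the high-affinity sodium-coupled carrier, had 0.16 (SE 0.122) and -0.15 (SE 0.139). Its later CF libraries had 23.3, 29.2, 23.6, 20 and 21.9 CPM and its later non-CF libraries 24.1 to 29.0, so that 4 of 5 CF libraries lay below every non-CF library and 1 above them all. SLC5A12, the low-affinity one, had -0.04 (SE 0.213) and 0.04 (SE 0.241). BSG, the partner of SLC16A1 and SLC16A3, had 0.02 (SE 0.123) and -0.02 (SE 0.140), and its sign in the earlier set turned with upper-quartile scaling (-0.03). Leaving out a single library could also turn the sign of BSG and SLC5A12 in both sets and of SLC16A3 in the later set. The 95% intervals of these 4 genes in the later set ran from -0.59 to 0.54 in all, so changes of that size are not excluded for the carriers with the widest spread. A neighbour of SLC16A1 on chromosome 4 (LOC100156854, 107615986 to 107639708), which RefSeq also describes as monocarboxylate transporter 1, had only 115 to 222 counts per library and log2 fold changes of -0.18 (SE 0.112) and -0.14 (SE 0.127). It was added after the annotation had been read.

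LDHA, the subunit typical of tissues that form lactate (gene 407245, chromosome 2 from 40814163 to 40827284, minus strand), was lower in CF libraries of the later set. CF pigs had 42.9, 34.9, 45.2, 36.2 and 38.6 CPM there, and non-CF pigs 69.2, 77.4 and 74.4 (HET) and 72.7 and 53.5 (WT), without overlap. The log2 fold change was -0.81 (SE 0.241). In the earlier set, CF libraries ranged from 37.9 to 106 CPM (median 68.4) and non-CF libraries from 52.3 to 126 (median 81.0). They overlapped, and the log2 fold change was -0.22 (SE 0.211), the same direction. Over all libraries it was -0.47 (SE 0.167). LDHB_1, the subunit that favours lactate oxidation, had -0.05 (SE 0.0873) in the earlier and -0.27 (SE 0.0993) in the later set, where CF libraries had 592, 538, 760, 641 and 646 CPM and non-CF 753, 804, 767, 792 and 702. The single-exon LDHB entry had -0.47 (SE 0.292) and -0.79 (SE 0.339), at a mean of 1.20 CPM. The share of LDHA in LDHA and LDHB_1 was 4.38% ± 0.463 (SD, n = 5) in later CF and 6.25% ± 0.572 (SD, n = 5) in later non-CF libraries.

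GPD1, the cytosolic enzyme of the shuttle (gene 100153250, chromosome 5 from 16008179 to 16021676), did not follow GPD2. Later CF libraries had 140, 105, 157, 108 and 145 CPM, and later non-CF libraries 121, 115 and 122 (HET) and 131 and 172 (WT). The ranges overlapped, with 2 of 5 CF libraries below every non-CF library and 1 non-CF library above every CF library, and the log2 fold change was -0.01 (SE 0.254). The earlier set gave a log2 fold change of -0.31 (SE 0.225), opposite in sign to GPD2. GPD2 as a share of the TPM of GPD1 and GPD2 was accordingly 7.34% ± 1.79 (SD, n = 5) in later CF and 12.1% ± 2.56 (SD, n = 5) in later non-CF libraries, against 16% ± 5.53 (SD, n = 6) and 12.5% ± 4.57 (SD, n = 7) in the earlier set.

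**Figure D3:**
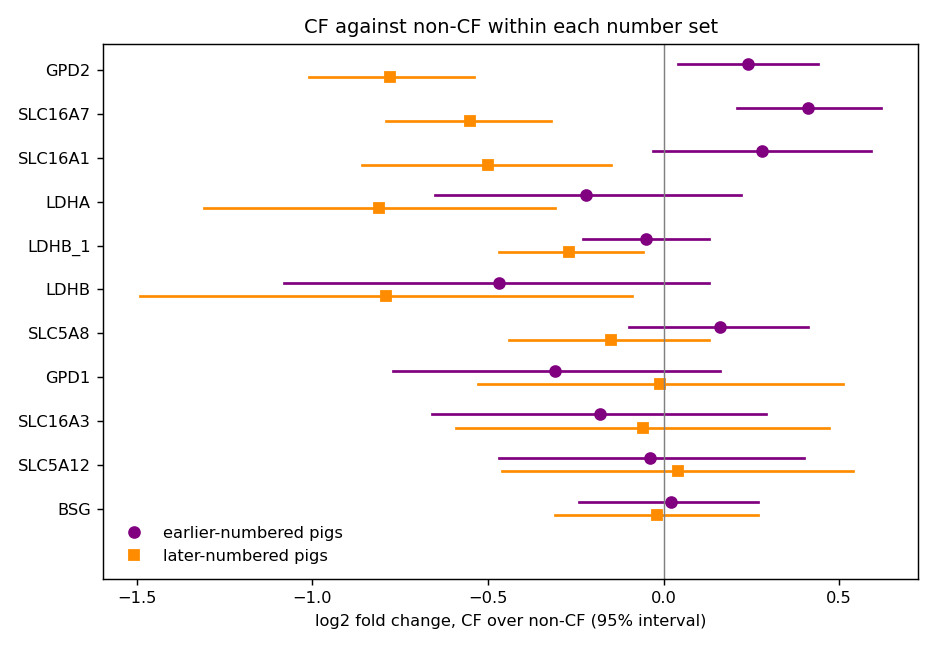
Log2 fold change of CF over non-CF with its 95% interval for each gene, in earlier-numbered (circles) and later-numbered (squares) pigs. GPD2 (0.24 and -0.78), SLC16A7 (0.41 and -0.55) and SLC16A1 (0.28 and -0.50) lie on opposite sides of 0, LDHA lies left of 0 in both sets, and SLC5A12 and BSG lie near 0.

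Transcripts of the same gene divided the differences unevenly. Of the 6 GPD2 transcripts, XM_021075777.1 held 57.7% of the gene's TPM on average and XM_021075778.1 held 23.1%, and both start at the end of the promoter window shown above. XM_021075777.1 had 2.32 ± 0.402 TPM (SD, n = 5) in later CF against 4.49 ± 0.597 (SD, n = 5) in later non-CF libraries, and 3.83 ± 0.891 (SD, n = 6) against 2.64 ± 0.595 (SD, n = 7) in the earlier set. XM_021075778.1 was lower in CF in both sets, with 0.844 ± 0.274 against 1.67 ± 0.456 TPM (SD, n = 5 each) in the later and 1.05 ± 0.543 (n = 6) against 1.59 ± 0.517 (n = 7) in the earlier set. The change of direction in GPD2 thus lay in XM_021075777.1, as far as estimates for transcripts of one start can be told apart. For SLC16A7, XM_013997677.2 (40.4% of the gene's TPM) had 5.22 ± 1.14 against 9.31 ± 0.989 TPM in the later set (SD, n = 5 each). In the earlier set it had 6.02 ± 1.94 (n = 6) against 5.65 ± 0.920 (n = 7), so the higher earlier CF level came mostly from other transcripts.

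The transcript NM_001172363.2 of LDHA was near 0 in some libraries of each label. This transcript, 1 of 5 of the gene, was under 0.1 TPM in 7 of 13 earlier-numbered libraries, of which 4 were CF, 2 HET and 1 WT. In the other 6 earlier libraries it had 4.27 to 7.09 TPM in CF and 14.5 to 31.9 in non-CF pigs. Later libraries had 7.19 to 11.6 TPM in CF and 11.7 to 27.8 in non-CF pigs. The earlier ranges leave out 4 of 6 CF and 3 of 7 non-CF libraries by this transcript's own value. No comparison of CF with non-CF is therefore read from them. The level of the whole gene overlapped between both kinds of earlier library, 26.5 to 76.7 TPM in the 7 and 28.8 to 58.2 in the 6. XM_021081651.1 held 72.7 to 91.4% of it in the 7 and 25.9 to 74.4% in the 6. These 7 libraries were picked by this transcript's own value, so their gene levels are given as values only.

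HET and WT pigs, both without the disease, were compared with all 10 genes tested in edgeR's quasi-likelihood fit of all libraries with the number set as a term. By edgeR's adjusted p 0 of the 10 genes differed, where 2 of 20912 genes did (CFTR and DNAH5, the latter named after its value was seen, 0.00956%; 1660 genes at an unadjusted p under 0.05, and 42 with DESeq2). At an unadjusted p under 0.05, LDHA and GPD1 did, as did 7.94% of all genes. For GPD2 the HET libraries had 23.2 to 39.3 CPM (median 30.9) and the WT libraries 23.6 to 30.7 (median 26.6), and the log2 fold change was 0.12 (SE 0.104, 95% interval -0.10 to 0.33, edgeR's adjusted p = 0.804). For SLC16A7 HET had 81.3 to 129 CPM (median 99.1) and WT 63.5 to 131 (median 85.6), a log2 fold change of 0.07 (SE 0.109, -0.16 to 0.29, adjusted p = 0.909 by edgeR). For SLC16A1 it was -0.09 (SE 0.146, -0.40 to 0.21, edgeR's adjusted p = 0.9), with 0.28 in the earlier and -0.46 in the later set. LDHA was above the WT median in 6 of 6 HET libraries, 69.2 to 126 against 52.3 to 84.6 CPM. Its log2 fold change of 0.44 (SE 0.206) did not pass the adjustment (edgeR's adjusted p = 0.624). GPD1 was below the WT median in 6 of 6 HET libraries, 55.1 to 122 against 91.4 to 172 CPM, and its log2 fold change of -0.56 (SE 0.208) did not pass either (edgeR's adjusted p = 0.514). The remaining genes had edgeR's adjusted p between 0.642 and 0.994.

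Within-library shares were compared between HET and WT with two-sided exact permutation tests, adjusted over 5 tests. Unlike the edgeR fit, these permutations did not take the number set into account. The earlier and later sets held 3 and 3 HET and 4 and 2 WT pigs. GPD2 made up 15% ± 3.23 (SD, n = 6) of the TPM of GPD1 and GPD2 in HET and 9.67% ± 1.73 (SD, n = 6) in WT libraries. The HET libraries ranged from 11.8 to 20.9% and the WT libraries from 7.88 to 12.5%, and 6 of 6 HET libraries lay above the WT median (exact permutation p = 0.00433, adjusted p = 0.0216, the smallest possible p being 0.00216). Within the earlier set the share was 16.2% ± 4.59 (SD, n = 3) in HET and 9.71% ± 1.95 (SD, n = 4) in WT, and within the later set 13.8% ± 0.833 (SD, n = 3) and 9.58% ± 1.89 (SD, n = 2). Of the enzymes themselves, GPD1 had log2 fold changes, HET over WT, of -0.78 (SE 0.273) in the earlier and -0.34 (SE 0.318) in the later set. GPD2 had -0.01 (SE 0.133) and 0.24 (SE 0.16), and all 4 values missed edgeR's adjusted limit (adjusted p between 0.28 and 0.992). With any 1 of the 12 libraries left out, the exact permutation p of the share was between 0.00433 and 0.00866. GPD1 is abundant in fat, and adipocyte markers (5 genes) summed to 11.7 to 19.2 CPM in HET and 7.80 to 43.6 in WT libraries, the highest being WT pig 17, with ADIPOQ at 6.07 CPM there and at a median of 0.167 over all libraries. The part of fat in the share was not tested. The share of SLC16A7 in SLC16A1, SLC16A3 and SLC16A7 was 27.8% ± 3.96 in HET and 29.2% ± 7.01 in WT (SD, n = 6 each, exact permutation p = 0.697, adjusted p = 0.732). LDHA in LDHA and LDHB was 97.3% ± 0.797 and 97.5% ± 0.905 (SD, n = 6 each, exact permutation p = 0.732). With LDHB_1 in place of LDHB it was 8.53% ± 2.78 in HET and 6.66% ± 1.25 in WT (SD, n = 6 each, exact permutation p = 0.156). Log2 CPM of GPD2 and SLC16A7 gave exact permutation p = 0.297 and 0.368, both with an adjusted p of 0.613.

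**Figure D4:**
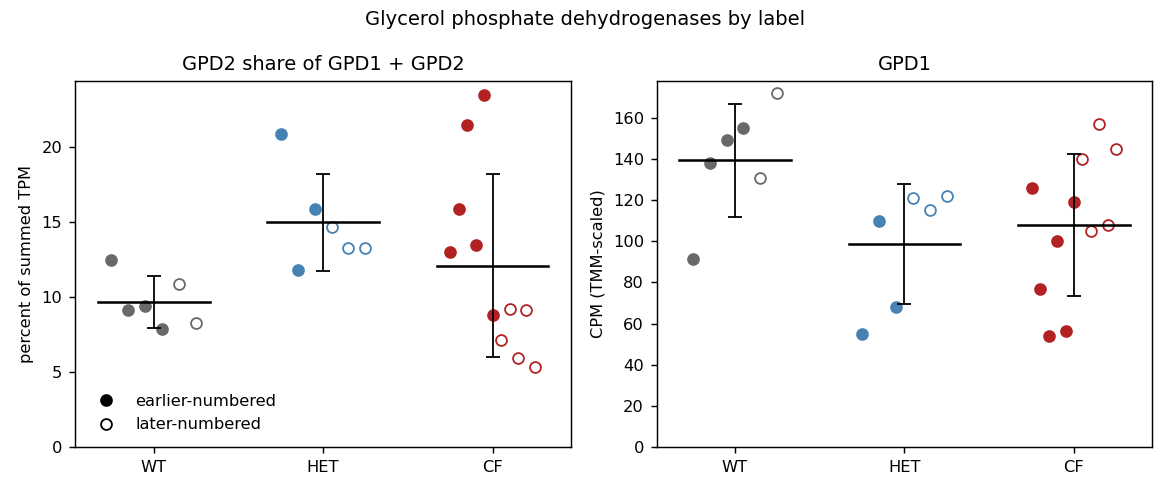
GPD2 as a percentage of the summed TPM of GPD1 and GPD2 (left) and CPM of GPD1 after TMM scaling (right) in each library by label, filled for earlier and open for later pig numbers, with bars for the mean ± SD. The HET points of the share lie between 11.8 and 20.9% and the WT points between 7.88 and 12.5%, and the CF points of the later set, 5.32 to 9.18%, overlap with the WT points.

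Of 68 other genes of these pathways, in 7 lists chosen with earlier results of these data known, 65 were tested in the same fits. Because of that choice, the calls and counts of these lists describe these data and are no independent support. In the later set 2 were higher and 2 lower in CF at edgeR's adjusted p under 0.05, where 1.07% of all genes were called, and over all libraries 2 were higher and 2 lower, where 0.708% were. DESeq2 called 6 of the 65 in each of these comparisons, beside 3% of all genes in the later set and 3.11% over all libraries. In the earlier set, in the difference between sets and in HET against WT edgeR and DESeq2 called 0 of the 65 (DESeq2 called 1.54%, 0.732% and 0.201% of all genes there). At an unadjusted p under 0.05 by edgeR 8, 7 and 4 of the 65 stood, beside 11.2%, 10.1% and 7.94% of all genes. The same limit was met by 22 of the 65 in the later set, beside 14.6% of all genes, and by 18 over all libraries, beside 15.3%.

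The list of glycerol phosphate formation and use (8 tested) held both that fell. GK, glycerol kinase, which makes glycerol 3-phosphate from glycerol, fell in CF over all libraries (log2 fold change -0.34, SE 0.0734, edgeR's adjusted p = 0.0356). In the later set CF libraries had 121, 127, 157, 124 and 133 CPM and non-CF libraries 203, 182 and 166 (HET) and 177 and 182 (WT), without overlap (log2 fold change -0.46, SE 0.108, edgeR's adjusted p = 0.0365). In the earlier set CF libraries had 114 to 151 CPM and non-CF libraries 126 to 189, with 6 of 6 CF libraries under the non-CF median (log2 fold change -0.24, SE 0.0952, edgeR's adjusted p = 0.308). AQP7, the aquaglyceroporin that takes up glycerol in the proximal tubule, fell over all libraries (log2 fold change -0.59, SE 0.139, edgeR's adjusted p = 0.0469) and in the later set (-0.82, SE 0.206, edgeR's adjusted p = 0.0498). Its later CF libraries had 13.3, 22.6, 15.9, 11.7 and 13.1 CPM and its later non-CF libraries 31.2, 30.6, 27.2, 26.7 and 20.1, with 1 CF library among the non-CF values. Unlike GPD2, both genes had the same sign in both sets, and their difference between sets did not pass the test (-0.22, edgeR's adjusted p = 0.641, and -0.41, adjusted p = 0.645). The calls of GK and AQP7 were near the limit. Without 1 library, GK lost its call over all libraries in 9 of 23 cases and AQP7 in 16, with edgeR's adjusted p up to 0.0725 and 0.0891. In the later set GK lost it in 8 and AQP7 in 15 cases, with edgeR's adjusted p up to 0.115 and 0.14. AQP7 also lost its call over all libraries without the number-set term (edgeR's adjusted p = 0.0527). The median log2 fold change of the list was -0.12 in the later set, beside 0.01 over all genes.

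**Figure D5:**
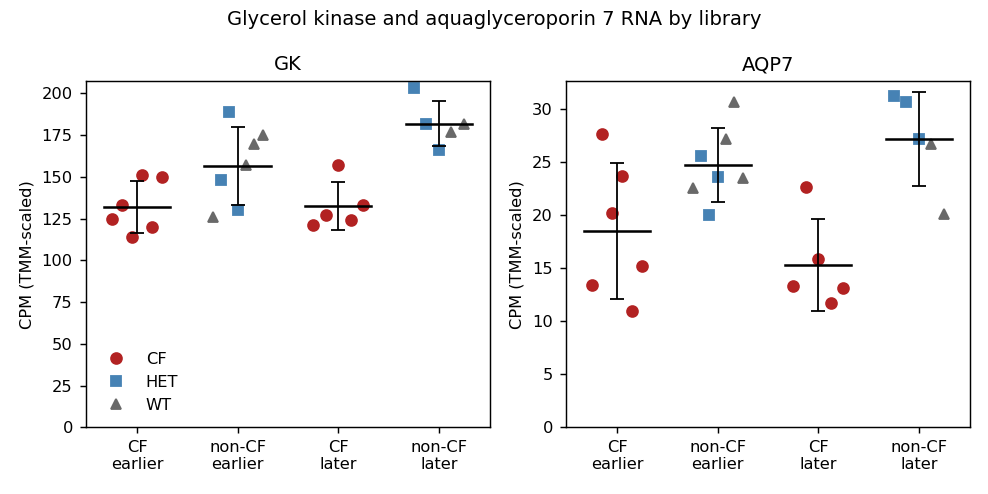
CPM after TMM scaling of GK and AQP7 in each library, by CF or non-CF and pig number set, coloured by label, with bars for the mean ± SD. The later CF points of GK (121 to 157 CPM) lie under the later non-CF points (166 to 203 CPM), and 1 later CF point of AQP7 (22.6 CPM) lies above the lowest non-CF point (20.1 CPM).

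The other genes of the 7 lists gave few calls. Among 11 hypoxia response genes, PFKFB3, which sets the level of a glycolytic activator, rose in CF over all libraries (log2 fold change 0.87, SE 0.203, edgeR's adjusted p = 0.0469) and in the later set (1.28, SE 0.293, edgeR's adjusted p = 0.0322), with 68.6 to 138 CPM in later CF and 29.0 to 45 in later non-CF libraries. In the earlier set 3 of 6 CF libraries lay above every non-CF library, the highest at 130 CPM, and the other 3 lay below the non-CF median (log2 fold change 0.55, SE 0.254, edgeR's adjusted p = 0.425). The median of the hypoxia list was 0.01 in the later set, the same as over all genes. Among 8 tested thyroid hormone response genes, HR, a corepressor, rose in the later set (log2 fold change 1.72, SE 0.334, edgeR's adjusted p = 0.0104, 9.46 to 40.4 against 4.49 to 9.32 CPM), and KLF9, a transcription factor, rose over all libraries (0.36, SE 0.0822, edgeR's adjusted p = 0.0405). Over all libraries PFKFB3 lost its call in 15 and KLF9 in 14 of the 23 fits without 1 library, and both lost it without the number-set term (edgeR's adjusted p = 0.0507 for each).

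Of the 7 genes of the malate-aspartate shuttle, the other route for cytosolic NADH, 0 passed the test in any comparison by edgeR or DESeq2. At an unadjusted p under 0.05 by edgeR 3 stood in the later set and 2 over all libraries. Of all genes, 14.6% met that limit in the later set and 15.3% over all libraries, here and for the other lists below. All 7 had a log2 fold change under 0 in both sets, with medians of -0.08 in the earlier and -0.29 in the later set beside -0.00 and 0.01 over all genes. SLC25A11, its oxoglutarate carrier, had 79.8 to 98.7 CPM in later CF and 99.1 to 125 in later non-CF libraries (log2 fold change -0.33, SE 0.123, edgeR's adjusted p = 0.2). Of 14 genes of pyruvate entry into mitochondria 0 passed edgeR's test in any comparison (6 at an unadjusted p under 0.05 in the later set and 4 over all libraries), with medians of 0.09 and -0.13. DESeq2 called MPC2, a subunit of the mitochondrial pyruvate carrier, lower in the later set, and PC, pyruvate carboxylase, higher over all libraries. By edgeR MPC2 had -0.50 (SE 0.137, adjusted p = 0.0709) and PC 0.61 (SE 0.152, adjusted p = 0.0586) in these comparisons. PDK4, a kinase that shuts off pyruvate dehydrogenase, had the smallest p of this list for the difference between sets (-0.87, SE 0.303, edgeR's adjusted p = 0.301), with 89.7 to 169 CPM in later CF and 184 to 216 in later non-CF libraries. Of 13 other monocarboxylate carriers and partners 0 passed edgeR's test in any comparison (2 at an unadjusted p under 0.05 in the later set), with medians of 0.15 and 0.17. DESeq2 called SLC16A9 higher in CF in the later set, where edgeR gave 0.86 (SE 0.271, adjusted p = 0.122). SLC16A10, an aromatic amino acid carrier, had -0.48 (SE 0.134, edgeR's adjusted p = 0.184) for the difference between sets. Of 4 other lactate enzymes 0 passed in any comparison by edgeR or DESeq2 (0 at an unadjusted p under 0.05 by edgeR in the later set and 1 over all libraries), with medians of 0.13 and 0.07, and GLO1, an enzyme of methylglyoxal removal, had -0.09 (SE 0.116, edgeR's adjusted p = 0.845).

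Markers of kidney and other cell types were measured beside these values, as 65 genes in 12 lists of which 58 were tested. In the later set CALB1, a marker of the distal tubule, and KDR, of endothelium, were lower in CF by edgeR's test (log2 fold changes -2.30, SE 0.448, adjusted p = 0.0105, and -0.49, SE 0.113, adjusted p = 0.0343), where 1.07% of all genes were called. DESeq2 called 6 markers in that set (3% of all genes). By edgeR 0 markers passed over all libraries (10 of 58 at an unadjusted p under 0.05, beside 15.3% of all genes, and 6 called by DESeq2, beside 3.11%). Both tools called 0 in the earlier set, in the difference and in HET against WT, with 5, 7 and 4 at an unadjusted p under 0.05 by edgeR, beside 11.2%, 10.1% and 7.94% of all genes. The 7 loop of Henle and distal tubule markers summed to 1380 to 1829 CPM in later CF and 1863 to 2465 in later non-CF libraries, without overlap, as did the 4 endothelial markers (378 to 489 against 504 to 549). Of single genes, 4.64% did not overlap in that set. By log2 fold change, 6 of the 7 tubule markers of the first sum were under 0, whereas of the 4 endothelial markers 2 were under and 2 above 0. Both sums overlapped in the earlier set (1265 to 1969 against 1321 to 2238, and 430 to 565 against 426 to 583). Proximal tubule markers overlapped in the later set (9986 to 13528 against 9173 to 12517). The part of these cell types in the lower GPD2, SLC16A7 and LDHA of later CF libraries was not tested.

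The genes whose log2 CPM was most like GPD2 over the 23 libraries were SH3GL2 (Pearson's r 0.83), PPP2R3A (0.79), TRPM6 (0.77), BICC1 (0.76) and F13A1 (0.76). For SLC16A7 they were NUDT4 (0.86), SGTB (0.78), ELOVL7 (0.76), RAB9A (0.76) and TRIM50 (0.74). GPD2 and SLC16A7 had r 0.61 with each other, at place 159 among the genes most like GPD2 and at place 75 among those most like SLC16A7. Within the 10 later libraries r of this pair was 0.86 and within the 13 earlier libraries 0.45. These libraries share the CF and non-CF groups and the number sets, so the values describe likeness only.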

How the data were processed

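Kidney cortex RNA of 23 newborn pigs was analysed. Reads of stranded libraries depleted of ribosomal RNA were pseudoaligned by the authors to Sscrofa11.1 transcripts (kallisto). The authors deposited estimated counts, without normalization, and TPM values, which kallisto scales by effective transcript length to a constant sum, for 77689 transcripts. Per gene, the estimated counts were added up and rounded (63.0% of transcript values were not whole). TPM values were summed per gene without change.

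Counts were tested with edgeR (version 4.0.16, R 4.3.3): TMM factors, filterByExpr, a quasi-likelihood fit of all 23 libraries, and Benjamini-Hochberg adjustment over all 20912 tested genes with a limit of 0.05. CF against non-CF was fitted within each number set, with the difference between sets as the interaction. HET against WT and CF against non-CF over all libraries had the number set as a term. Log2 CPM used a prior count of 2. Shares were tested by exact permutation in scipy 1.17.1, without the number set. The genes and lists were chosen with earlier results of these data known, and so was the split by pig number, which was first seen on a scaling axis of these libraries and then found to match the titles. All 10 genes are named, with up to 5 called genes per pathway list, otherwise the gene with the smallest p for the difference, the 5 genes most like GPD2 and SLC16A7, and CFTR. Alternatives were DESeq2 1.42.0, other scalings, filters and controls, and each library left out in turn. p-values measure the spread between these pigs. A count of 0 allows up to 3 counts, and library depth covers counting error only.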

Additional observations from a re-analysis of the deposited data

Results flagged for a closer look

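The effect of CF differed between the number sets by -1.02 for GPD2 and -0.97 for SLC16A7 on the log2 scale. Both genes were chosen by this difference, so the values are a description and no test bears on them. Of all other genes, MMP11 (0.92) and NUDT4 (-0.83), which are no members of these pathways, had an adjusted p under 0.05 in edgeR's test of that difference, and lost it in 15 and 16 of the 23 fits without 1 library. MMP11, a matrix metalloprotease, had 122 to 155 CPM in later CF and 75.4 to 93.4 in later non-CF libraries. NUDT4, an inositol phosphate phosphatase, had 111 to 138 and 143 to 194 CPM.

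Of 66 groups of 5 to 7 libraries examined for the 10 genes and LDHB_1, 4 (6.06%) held 1 library far from the rest, where chance gives about 1 in 20. SLC5A8 was 35.2 CPM in WT pig 12, above 27.3 as the next WT value and above 26.9 as the next value of earlier non-CF pigs. SLC5A12 was 453 CPM in CF pig 9, above 293 as the next later CF value. GPD1 was 172 CPM in WT pig 23, above 131 as the next later non-CF value.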

How the results depend on the processing

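The log2 difference between sets of GPD2 was -1.02 and lay between -1.08 and -0.94 with each library left out and between -1.10 and -0.76 under the other alternatives, the last with log2(TPM + 1). That of SLC16A7 lay between -1.02 and -0.90 and between -1.03 and -0.87. Calls were less stable. With DESeq2, upper-quartile scaling, HET alone and WT alone as the control, 153, 10, 9 and 1 genes were called for the difference, against 4, and with a library left out 1 (CF pigs 3 or 11, HET pig 20) to 93 (CF pig 1). WT alone as the control ended the call of GPD2, and WT alone, HET alone and leaving out CF pig 3, CF pig 11 or HET pig 20 ended that of SLC16A7. Both genes were chosen by this difference, so calls kept or lost are no support for it.

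For the earlier set, DESeq2 called 323 genes, no filter 46, upper-quartile scaling 3 and a fit of that set alone 0, against 71, and left-out libraries gave 3 (CF pig 5, WT pig 16) to 117 (WT pig 17). For the later set DESeq2 called 628, its own fit 476 and upper-quartile scaling 347, against 223, and left-out libraries gave 80 (CF pig 7) to 406 (CF pig 1). Over all libraries DESeq2 called 650, a CPM filter 246 and no number-set term 72, against 148, and left-out libraries gave 22 (HET pig 21) to 364 (CF pig 4). HET against WT gave 42 with DESeq2 and 1 without the set term, and 2 to 5 with a library left out, against 2. Upper-quartile scaling moved the split of higher to lower calls from 98 and 50 to 94 and 104 over all libraries, from 66 and 5 to 2 and 1 in the earlier set and from 1 and 3 to 7 and 3 for the difference. A left-out library moved the count by more than 1.5 times in 18 of 23 cases for the difference, 14 for the earlier set, 7 for the later set, 16 over all libraries and 4 for HET against WT. The cause was not tested.

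HET against WT turned sign for SLC16A1 without the set term (0.01) and for SLC5A12 with upper-quartile scaling (-0.01) or without WT pig 12 (-0.00), HET pig 15 (-0.04), HET pig 19 (-0.15) or WT pig 22 (-0.05), with 0.13 as its highest value with a library left out (HET pig 21). The SLC16A7 share difference lay between -3.27 and 0.872 points with a library left out, above 0 without WT pig 12. PFKFB3 lost its call over all libraries without any 1 of 15 libraries and KLF9 without any 1 of 14, with edgeR's adjusted p up to 0.0887 and 0.0816. GK lost it over all libraries when pig 5, 7 or 8 (CF), 14, 20 or 21 (HET) or 16, 17 or 18 (WT) was left out. In the later set GK lost its call without any 1 of 8 libraries, AQP7 of 15, PFKFB3 of 6 and HR of 0. AQP7 also lost it there with median-of-ratios scaling and with either other filter. Over all libraries AQP7, PFKFB3 and KLF9 lost it without the set term. No paired analysis was possible because the pig numbers are not shared between groups.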
